A study of Mus musculus with 6 samples.

Results

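The cells described here are macrophages of mouse dermal collecting lymphatic vessels that carry RNA of Lyve1, Folr2 and Cd163, a combination known from tissue-resident macrophages around vessels. They were chosen by a rule on counts of UMIs, the molecular tags that mark each captured RNA molecule. A barcode counted as a cell when 500 or more genes were detected in it and no more than 10% of its UMIs were mitochondrial. It had to hold at least 3 UMIs of C1qa, C1qb and C1qc together, at least 2 of Lyve1, Folr2 and Cd163 together, at most 4 of Ccl3 and Ccl4 together, and none of Cd3e or Cd79a. The rule took 3728 of 24488 kept cells, or 68.6% of the 5438 cells that passed its C1q, Cd3e and Cd79a conditions, which are called C1q-positive macrophages below. The other 1710 C1q-positive macrophages of the same libraries served for comparison.

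The study consists of 6 single-cell RNA libraries from C57BL/6 mice, made with a 10x 3′ droplet kit, with 2 libraries at each of 3 ages, of which 1 is labelled male and the other female. Young mice were 6 weeks old, middle-aged mice 12 months and aged mice 18 months. In every group, Evans Blue dye was put into the inguinal lymph node to show the collecting vessels that run towards the axillary node. The vessels were then dissected, digested with collagenase, elastase, dispase and DNase, and freed of red cells. No transgene or sorting step is named, the number of mice per library is not stated, and the aged mice came from the National Institute on Aging, so that age and supplier cannot be told apart.

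Each library held between 9616652 and 28921825 UMIs, and member sums ranged from 108118 UMIs in 16 cells (labelled middle-aged female) to 2674088 UMIs in 1199 cells (young male). The libraries labelled middle-aged male and middle-aged female went against their labels: Xist, an RNA of the inactive X chromosome, was at 1402 CPM (counts scaled to 1000000 UMIs of a sum) in the first and 0.255 CPM in the second, and the Y-linked genes were at 0.106 and 265 CPM. Their labels are kept below as names only, and values without both of these libraries are given where calls depend on them. No pair of libraries shared more than 12 cell barcodes, and 3 pairs shared 1 member barcode each. Values per library are always listed from young over middle-aged to aged, with the library labelled male before the one labelled female at each age.

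Resident macrophages are long-lived cells that settle in tissues and are kept apart in function from monocytes, which arrive from blood. Lyve1 is a receptor for hyaluronan that lymphatic endothelium also carries, Folr2 is a folate receptor, Cd163 takes up haemoglobin bound to haptoglobin, and Cd209f belongs to a family of lectins. Macrophages of this kind are known for clearing dead cells, proteins and iron, and for lying along vessels.

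Members carried the macrophage markers and not those of lymphatic endothelium. To compare cells of different depth, each cell was thinned to 1500 UMIs, which left out 823 members, 367 other C1q-positive macrophages and 809 of 11241 cells rich in collagen RNA. Of 2905 thinned members, 71.1% held a UMI of Lyve1, 90.8% of Folr2 and 59.3% of Cd163, against 41.8%, 53.8% and 36.6% of 1343 thinned other C1q-positive macrophages. In 10432 collagen-rich cells, which should lack these genes, the shares were 0.220%, 0.585% and 0.220%. Without thinning the members' shares were 80.3%, 95.1% and 65.3%, at median depths of 2267 UMIs in members and 2395 in the others. These 3 genes are part of the rule, so their shares are a description. Cd209f, which the rule did not use, was found in 73.4% of thinned members, 40.0% of the others and 0.383% of collagen-rich cells. Prox1, the defining factor of lymphatic endothelium, had a UMI in 0.344% of thinned members and in 0.470% of collagen-rich cells, and Flt4 in 0.0344% and 0.0575%. Lyve1 RNA in these cells was thus not accompanied by those endothelial markers above the level in collagen-rich cells. Among the genes of the rule itself, 50.2% of members held all 3 of Lyve1, Folr2 and Cd163, 26.3% held Lyve1 and Folr2 without Cd163, and 11.5% held Folr2 and Cd163 without Lyve1.

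The rule draws a line through a gradient. Cells with exactly 2 UMIs of Lyve1, Folr2 and Cd163, just inside the rule, numbered 232 and held 1404 CPM of Mrc1, 520 CPM of Cd209f and 2973 CPM of Ccl8. The 245 cells with 1 such UMI, just outside, held 667, 227 and 854 CPM. At the other limit, the 119 cells with 4 UMIs of Ccl3 and Ccl4 held 1039 CPM of Cd209f and 4691 CPM of Ccl8, and the 97 cells with 5 such UMIs, just outside, held 1216 and 5066 CPM. The Ccl3 and Ccl4 limit therefore separated cells with like levels of these 2 genes, while the Lyve1, Folr2 and Cd163 limit separated cells whose levels differed by more than 2 times.

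For this reason the other C1q-positive macrophages are described in 2 kinds. In the first, 957 cells exceeded the limit on Ccl3 and Ccl4, and 854 of them also met the Lyve1, Folr2 and Cd163 condition. These are called Ccl-high below. The second kind, called Ccl-low, held 753 cells that stayed within the Ccl3 and Ccl4 limit and lacked the Lyve1, Folr2 and Cd163 UMIs. Only 2 Ccl-low cells came from the library labelled middle-aged female.

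Members made up 68.9, 79.1, 63.3, 17.6, 71.0 and 72.9% of the C1q-positive macrophages of the 6 libraries. The share was lowest in the library labelled middle-aged female, where 16 of 91 cells were members (exact Clopper-Pearson 95% interval 10.4 to 27.0%, which covers counting error only). In that library 80.2% of C1q-positive macrophages exceeded the Ccl3 and Ccl4 limit, against 7.59, 10.4, 28.2, 24.0 and 7.76% in the others. With the Lyve1, Folr2 and Cd163 condition alone and no Ccl limit, the same library had the highest share, 95.6%, and the 6 libraries spanned 74.6 to 95.6%. Ccl-low cells were most frequent in the young male (23.5%) and aged female (19.4%) libraries. The mean share of members was 74.0 ± 7.21% in young (SD, n = 2), 40.4 ± 32.3% in middle-aged (n = 2) and 71.9 ± 1.30% in aged libraries (n = 2). Aged and young differed by -2.11 percentage points, less than the spread between the young libraries (exact permutation test, two-sided, p = 1, where 2 against 2 libraries cannot give less than 0.333). Leaving out the young female library turned this difference to 2.99 points, and removing the Ccl limit turned it to 4.60 points. Plotting the make-up by library shows both kinds beside the members.

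**Figure D1:**
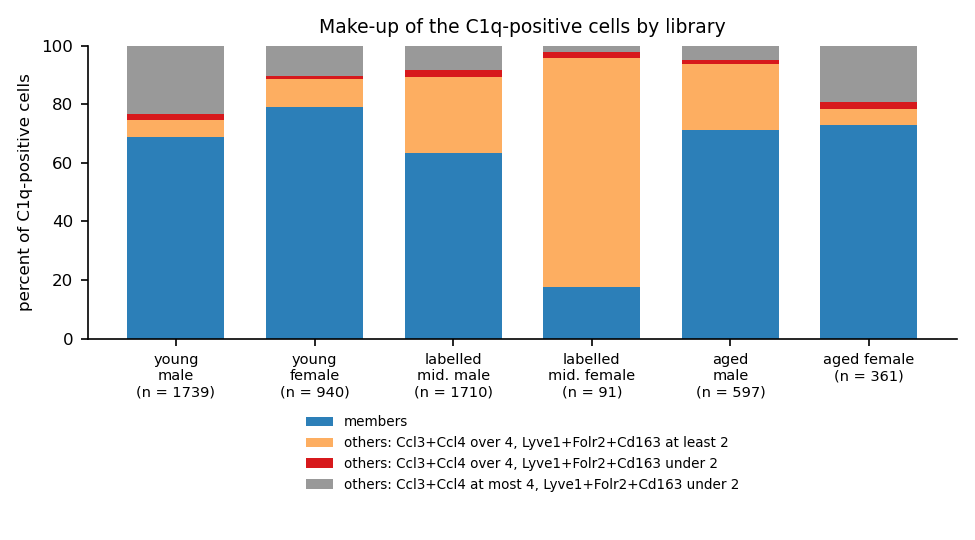
Each column is 1 library and its height is the percent of C1q-positive macrophages, divided into members and the kinds of other cell, with the number of C1q-positive cells under it. Members fill 63.3 to 79.1% of 5 columns and 17.6% of the column labelled middle-aged female, where cells above the Ccl3 and Ccl4 limit take 80.2%. The gate is on full counts, and the cells of that library are the deepest.

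Levels of the defining genes in the summed members varied between libraries, and the rule sets a lower bound on them. Lyve1 stood at 1022, 865, 1400.5, 1064, 1311 and 1593 CPM. It spans chr7:110850607-110863239 on the minus strand (GENCODE M21, GRCm38). Folr2 stood at 1807, 2145, 1772, 1286, 1512 and 1849.8 CPM, and Cd163 at 744, 1153, 1026, 1656, 1458 and 1199 CPM. Every library held all 3, and for none of them did 1 library stand apart from the rest. Cd209f, which lies at chr8:4102787-4105835 and marks these cells without being part of the rule, stood at 1243, 1729, 1116, 1082, 1405 and 1754 CPM. In Ccl-high cells Cd209f ranged from 599.6 to 1223 CPM and in Ccl-low cells from 0 to 152 CPM, so the members and the Ccl-low cells did not overlap.

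Compared with the other C1q-positive macrophages, 13 of 26 resident-macrophage genes were higher in members, beside 1.68% of all genes tested. On the other side, 16 of 22 inflammatory genes, 5 of 16 genes of a TREM2 and lipid list and 3 of 9 monocyte genes were lower, beside 2.59% of all genes. Counts were summed per library and class and compared with edgeR's quasi-likelihood test, with the library as a block. A gene was called at a Benjamini-Hochberg adjusted p under 0.05. Of 7808 genes tested, 333 were called (4.26%), 131 higher (1.68%) and 202 lower (2.59%) in members. The classes were cut by counts of the same cells, so these p-values say how the classes made by the rule differ and are no independent evidence that the class exists. Gene lists were chosen with earlier results of these data known. Counts by list, against either comparator, therefore describe these cells and lend no independent support. The calls depended on single libraries: 89 genes were called without the young male library and 89 without the young female one, 141 without the aged male, 219 without the library labelled middle-aged male, and 184 (2.29%) without both middle-aged libraries. Against the Ccl-low cells alone, in 5 libraries, 1201 of 7657 genes were called (15.7%), 695 higher (9.08%) and 506 lower (6.61%).

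Ltc4s was higher in members in each fit that left out 1 library. It makes leukotriene C4, a lipid mediator, and lies at chr11:50236461-50238616. In members it stood at 257, 379.6, 389.6, 481, 497 and 469.8 CPM, and in the other C1q-positive macrophages at 69.9, 119, 247, 144, 214 and 56.5 CPM. Each library's members were above its own other cells, and the 2 ranges did not overlap. The mean was 412 ± 90.5 CPM in members and 142 ± 76.4 CPM in the others (SD, n = 6 libraries), a log2 fold change of 1.54 ± 0.24 (SE; edgeR adjusted p = 0.00587). It passed under all 15 alternative settings run for this comparison.

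Of 26 resident-macrophage genes tested, 13 were higher and none lower, with a median log2 fold change of 1.06 against -0.03 over all genes. Ccl8, a chemokine made by such macrophages, stood at 5072, 5343, 5991, 5170.3, 5603 and 5209 CPM in members, a narrow range, and at 1331, 1617, 4715, 4064, 2998 and 727 CPM in the others. The others were lowest in the aged female and both young libraries, and the log2 fold change was 1.20 ± 0.31 (edgeR adjusted p = 0.0481). Maf, a transcription factor of resident macrophages, stood at 1084, 1426, 1317, 916, 1149 and 1627 CPM in members and 452, 587, 788, 454, 600.3 and 159 CPM in the others, with no overlap of the 2 ranges. Its log2 fold change was 1.26 ± 0.28 (edgeR adjusted p = 0.0301). Timd4, a receptor for phosphatidylserine on dying cells, stood at 108, 156, 192, 166, 129 and 243 CPM in members and 18.4, 68.0, 127, 83.9, 90.6 and 23.3 CPM in the others (1.34 ± 0.33 on the log2 scale, edgeR adjusted p = 0.0441). Cd209d, a lectin of the same family as Cd209f, stood at 491, 874, 854, 805, 832 and 597 CPM in members and 84.5, 328, 619.7, 469, 439.8 and 44.1 CPM in the others (1.45 ± 0.36, edgeR adjusted p = 0.0459). These 4 genes were no longer called when the young female library was left out, and Ccl8, Maf, Timd4 and Cd209d were not called without the young male or the aged male library either. Maf, Timd4 and Cd209d were also lost without the library labelled middle-aged female. Cd209f had a log2 fold change of 1.40 ± 0.36 and did not pass (edgeR adjusted p = 0.0518).

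Against the Ccl-low cells, 25 of the 26 resident-macrophage genes were higher, with a median log2 fold change of 2.66 against 0.01 over all genes. Ccl8 stood at 518, 415, 651, 371 and 27.8 CPM in Ccl-low cells of the 5 libraries other than the one labelled middle-aged female, a log2 fold change of 4.09 ± 0.51 in favour of members (edgeR adjusted p = 0.000337). Cd209f was higher by 4.24 ± 0.56 (adjusted p = 0.000484), Cd209d by 3.81 ± 0.46, Timd4 by 3.37 ± 0.54 and Ltc4s by 3.2 ± 0.25 (edgeR adjusted p = 2.45e-05). Genes that missed the threshold against all others passed here: Mrc1, the mannose receptor, by 1.98 ± 0.31, F13a1, a clotting factor subunit, by 2.02 ± 0.29, Pf4, a chemokine, by 1.87 ± 0.20 and Cbr2, a carbonyl reductase, by 2.94 ± 0.34 (edgeR adjusted p from 0.000153 to 0.00133). Retnla was the exception, with 0.44 ± 0.33 (edgeR adjusted p = 0.419). The Ccl-low cells of the aged female library held 721 CPM of Krt8 and 914 CPM of Krt18, both keratins of epithelium, against 0 to 158 and 0 to 251 CPM in the other libraries. Whether these cells' RNA had a part in the comparison was not tested.

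**Figure D2:**
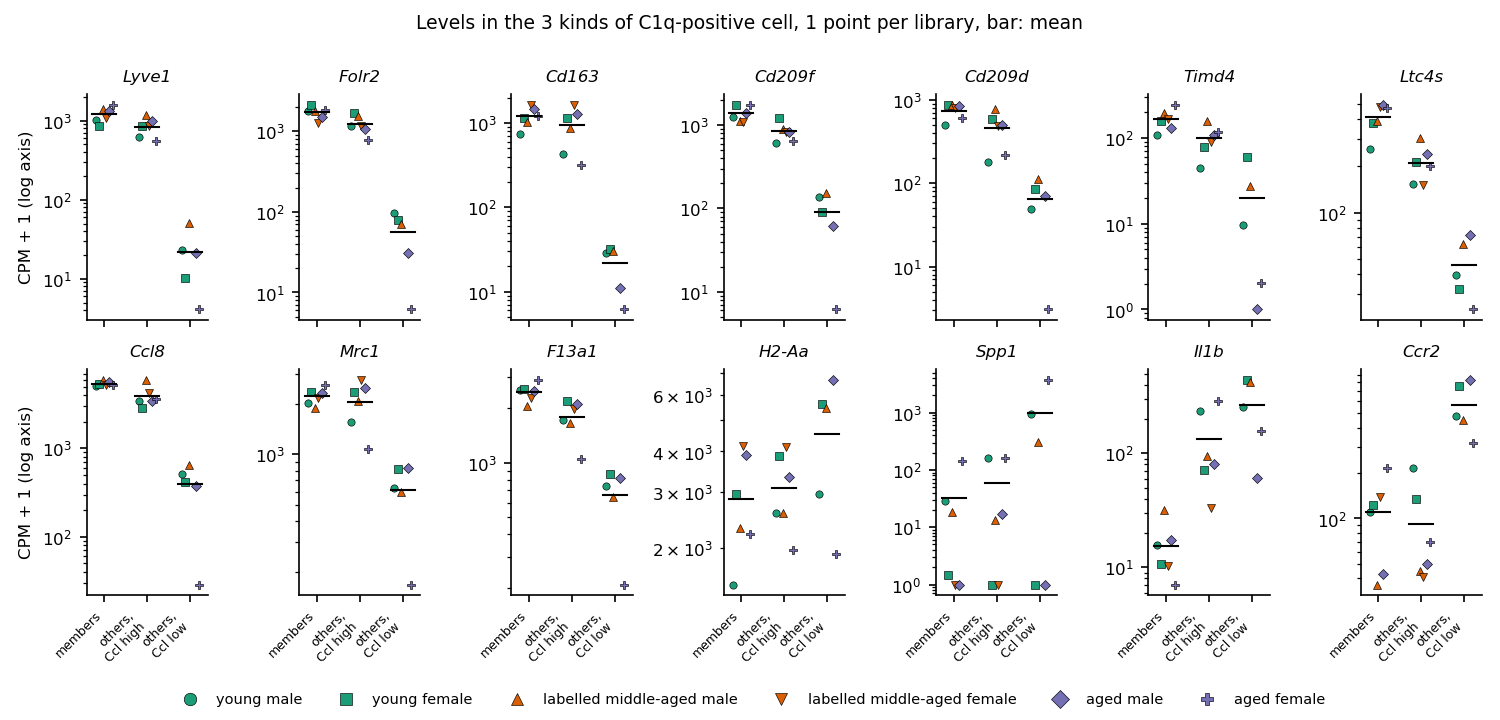
Each panel is 1 gene and shows its level (CPM + 1, log axis) in members, in Ccl-high and in Ccl-low other macrophages, with 1 point per library and a bar at the mean. Cd209f, Ltc4s and Ccl8 fall from members over Ccl-high to Ccl-low cells, and Il1b has its lowest mean in members, where it ranges from 6.06 to 30.7 CPM.

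Promoters are shown for 3 of the genes that were higher in members, chosen because their windows differ in the motifs they hold. Whether these genes change together was not tested. Each runs from 250 bases before to 50 bases after the RefSeq start site (GRCm38.p6). Capitals mark 2 motifs searched on both strands. The first is GAGGAA, which reads as TTCCTC on the opposite strand and is a core of sites bound by PU.1, the myeloid factor. It is held by 28.1% of 32544 RefSeq promoters of this length. The second is TGCTGA, which reads as TCAGCA on the opposite strand and is a half-site of MAF, and 19.5% of the promoters hold it. The motifs do not overlap in these windows.
Ccl8: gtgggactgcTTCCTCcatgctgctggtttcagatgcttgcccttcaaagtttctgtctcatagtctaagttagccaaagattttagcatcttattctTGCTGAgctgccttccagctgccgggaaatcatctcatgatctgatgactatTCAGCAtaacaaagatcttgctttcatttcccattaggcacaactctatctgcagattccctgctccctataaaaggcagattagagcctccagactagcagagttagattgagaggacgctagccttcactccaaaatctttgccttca
Timd4: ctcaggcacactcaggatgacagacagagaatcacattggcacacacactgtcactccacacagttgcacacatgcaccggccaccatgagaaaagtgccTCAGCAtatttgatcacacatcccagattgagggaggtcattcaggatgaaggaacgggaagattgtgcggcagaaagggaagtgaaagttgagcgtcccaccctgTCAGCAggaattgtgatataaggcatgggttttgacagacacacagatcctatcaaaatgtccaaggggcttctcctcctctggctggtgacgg
Ltc4s: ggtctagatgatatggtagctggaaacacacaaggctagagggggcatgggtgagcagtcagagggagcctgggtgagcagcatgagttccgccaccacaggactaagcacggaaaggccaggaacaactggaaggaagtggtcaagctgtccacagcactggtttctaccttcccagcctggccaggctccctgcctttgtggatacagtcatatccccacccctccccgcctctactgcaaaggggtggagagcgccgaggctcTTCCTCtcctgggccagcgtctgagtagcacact
The Ccl8 window, at chr11:82114935-82115234 on the plus strand, held 1 PU.1 core and 2 MAF half-sites. The Timd4 window, at chr11:46810549-46810848 on the plus strand, held 2 MAF half-sites and no PU.1 core. The Ltc4s window, at chr11:50238483-50238782 on the minus strand, held 1 PU.1 core and no MAF half-site. Gas6 was also higher in members, and its window, which is not printed, held neither motif. A match is a description of these letters and not a bound site.

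Of 24 scavenging genes tested, which serve to take up dead cells and other material, 5 were higher (Fcgrt, Gas6, Mertk, Stab1 and Timd4) and Itgb5 was lower. Over all genes 1.68% were higher and 2.59% lower. Against Ccl-low cells 14 of the 24 were higher and 6 lower, beside 9.08% and 6.61% of all genes. Gas6, the bridging protein that binds phosphatidylserine, stood at 843, 735, 629.6, 842, 629 and 879 CPM in members and 383, 353, 405, 531, 394 and 166 CPM in the others, with no overlap (0.95 ± 0.22 on the log2 scale, edgeR adjusted p = 0.0327). Mertk, the kinase receptor that Gas6 engages, was higher by 0.71 ± 0.15 (edgeR adjusted p = 0.0243), and Stab1, a scavenger receptor, by 0.90 ± 0.18 (adjusted p = 0.0195). Of 13 iron and heme genes only Tfrc, the transferrin receptor, was called, higher by 0.82 ± 0.17 (edgeR adjusted p = 0.0219). The calls of Gas6, Mertk, Stab1 and Tfrc ended without the young male or the young female library. Those of Gas6, Mertk and Stab1 also ended without the aged male library, those of Gas6 and Tfrc without the one labelled middle-aged male, and that of Gas6 without the one labelled middle-aged female. Against Ccl-low cells Gas6 was higher by 2.21 ± 0.22 and Mertk by 1.31 ± 0.20 (edgeR adjusted p = 0.000119 and 0.00111). Of the 13 iron and heme genes 5 were higher there (Blvrb, Hmox1, Hpgds, Ncoa4 and Tfrc), and Slc48a1 was lower by -1.05 ± 0.21.

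Of 16 macrophage identity factors, Maf, Klf2 and Klf4 were higher and none lower. Klf2 and Klf4, zinc finger factors linked to resting macrophages, were higher by 0.77 ± 0.18 and 0.67 ± 0.14 (edgeR adjusted p = 0.0378 and 0.0212). Csf1r, the receptor these cells need to survive, did not pass, with 0.52 ± 0.21 (edgeR adjusted p = 0.184), while it was higher against Ccl-low cells, by 1.20 ± 0.22 (edgeR adjusted p = 0.00373). Of 13 growth factor genes tested, 3 were higher: Igf1 by 0.69 ± 0.18, Pdgfc by 0.76 ± 0.19 and Nrp1, a co-receptor of vascular growth factors, by 0.94 ± 0.24 (edgeR adjusted p from 0.0431 to 0.0484). Vegfa, the vascular growth factor itself, was lower by -1.67 ± 0.41 (edgeR adjusted p = 0.0431). Klf2, Klf4, Igf1, Pdgfc, Nrp1 and Vegfa each lost their call without the young male, the young female or the aged male library. All of them except Vegfa also lost it without the library labelled middle-aged male, and all except Klf4 without the one labelled middle-aged female. None of 13 complement genes passed, and against Ccl-low cells 5 of 12 were higher, among them C4b by 2.21 ± 0.27 (edgeR adjusted p = 0.000286).

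Of 22 inflammatory genes tested, 16 were lower in members and none higher, with a median log2 fold change of -1.03. Ccl3 and Ccl4, which the rule limits, are not among the 22, but the limit selects on cells of the same state, so the count is tied to the rule. Il1b, the cytokine interleukin-1 beta, stood at 14.6, 9.63, 30.7, 9.25, 16.2 and 6.06 CPM in members and 248, 261, 169.9, 31.0, 77.3 and 182 CPM in the others. The highest member value was just below the lowest value of the others. Its log2 fold change was -3.67 ± 0.36 (edgeR adjusted p = 0.000245), and against Ccl-low cells, which the limit does not set apart, it was -4.16 ± 0.37 (adjusted p = 6.04e-05). Clec4e, a receptor for microbial glycolipids, stood at 7.48, 10.5, 10.4, 9.25, 4.81 and 0.865 CPM in members and 67.6, 101, 68.1, 43.8, 72.8 and 17.5 CPM in the others (-3.31 ± 0.22 on the log2 scale, edgeR adjusted p = 2.96e-05). Both calls held in each fit that left out 1 library. Against Ccl-low cells only 8 of 21 inflammatory genes were lower, and 3 were higher (Ccl2, Ccl7 and Il10). Cxcl10 depended on the comparator. It was lower by -2.01 ± 0.35 against all others (edgeR adjusted p = 0.00923) and differed by 0.01 ± 0.22 from Ccl-low cells (adjusted p = 0.988).

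Of 16 genes of the TREM2 and lipid list, 5 were lower (Spp1, Gpnmb, Fabp5, Lgals3 and Lpl) and none higher, and of 9 monocyte genes 3 were lower (Ccr2, Fn1 and Thbs1). Spp1, the secreted protein osteopontin, stood at 28, 0.459, 17.7, 0, 0 and 143 CPM in members and 713, 0, 80.2, 0, 13.4 and 3051 CPM in the others. Nearly all of it came from the young male and aged female libraries, and the others of the young female and the labelled middle-aged female libraries held none. The log2 fold change was -4.01 ± 0.48 (edgeR adjusted p = 0.00144). Lgals3, a lectin of activated macrophages, stood at 440.1, 479, 465, 638, 361 and 553 CPM in members and 1732, 1046, 816, 909, 545 and 1821 CPM in the others (-1.27 ± 0.21, edgeR adjusted p = 0.0077). Fabp5, a fatty acid carrier, was lower by -2.58 ± 0.33 (edgeR adjusted p = 0.0015). Those 3 calls held in each fit that left out 1 library. Trem2, the receptor the list is named for, did not pass (0.05 ± 0.26, edgeR adjusted p = 0.963).

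Ccr2, the chemokine receptor by which monocytes leave the blood, stood at 109, 121, 35.5, 139, 42.1 and 214 CPM in members and 406, 449, 137, 45.6, 165 and 269 CPM in the others. In 5 libraries the members were lower, and in the library labelled middle-aged female they were higher. Its log2 fold change was -1.46 ± 0.34 (edgeR adjusted p = 0.0371), a call that ended without the young male, young female, aged male or labelled middle-aged male library. Ccl-low cells held 480.4, 753, 447, 831 and 317 CPM in the 5 libraries tested, which puts Ccr2 lower in members by -2.66 ± 0.41 (edgeR adjusted p = 0.00124). Thbs1, a matrix protein also made by monocytes, was lower by -3.15 ± 0.29 (edgeR adjusted p = 0.000245). Mki67, a protein of dividing cells, was found in 0.620% of thinned members, 1.64% of the others and 0.230% of collagen-rich cells, and its summed level was lower in members by -2.46 ± 0.32 (edgeR adjusted p = 0.00163).

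Of 7 genes of antigen presentation by MHC class II, only H2-DMb1 was called, lower by -0.92 ± 0.18 (edgeR adjusted p = 0.0168), and not without the young male, the young female or the library labelled middle-aged male. H2-Aa stood at 1540.3, 2943, 2309, 4153, 3903 and 2217 CPM in members and 2839.6, 4771, 3243, 4011, 3823 and 1925 CPM in the others, higher in members in 3 of the 6 libraries (-0.44 ± 0.17, adjusted p = 0.17). Against Ccl-low cells 6 of 7 were lower, H2-Aa by -0.78 ± 0.21 (edgeR adjusted p = 0.0261). Cd74 did not pass in either comparison, with -0.38 ± 0.17 and -0.66 ± 0.22 (adjusted p = 0.233 and 0.0597).

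Of the genes called by size of change, Ear2, Slc7a11 and Cd44 were lower in each fit that left out 1 library. Ear2, a ribonuclease, was lower by -3.70 ± 0.43, Slc7a11, a cystine carrier, by -3.43 ± 0.35 and Cd44, a hyaluronan receptor, by -1.73 ± 0.17 (edgeR adjusted p = 0.000733, 0.000357 and 0.000245). Cd44 stood at 131, 97.7, 115, 166, 58.3 and 46.7 CPM in members and 374, 353, 289, 336, 178 and 206 CPM in the others, with no overlap. On the higher side were Chp2 (1.54 ± 0.34), Dusp6 (1.41 ± 0.26) and Stard8 (1.36 ± 0.27, edgeR adjusted p from 0.0123 to 0.0266), which were lost without the young male or the young female library. Chp2 and Stard8 were also lost without the library labelled middle-aged female, and Chp2 without the aged male one. In all, 51 named genes were called and 12 of them kept their call whichever library was left out. Leaving out the young female library ended 37 calls, the young male 34, the aged male 25, the library labelled middle-aged female 20 and the one labelled middle-aged male 16, while leaving out the aged female ended none.

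**Figure D3:**
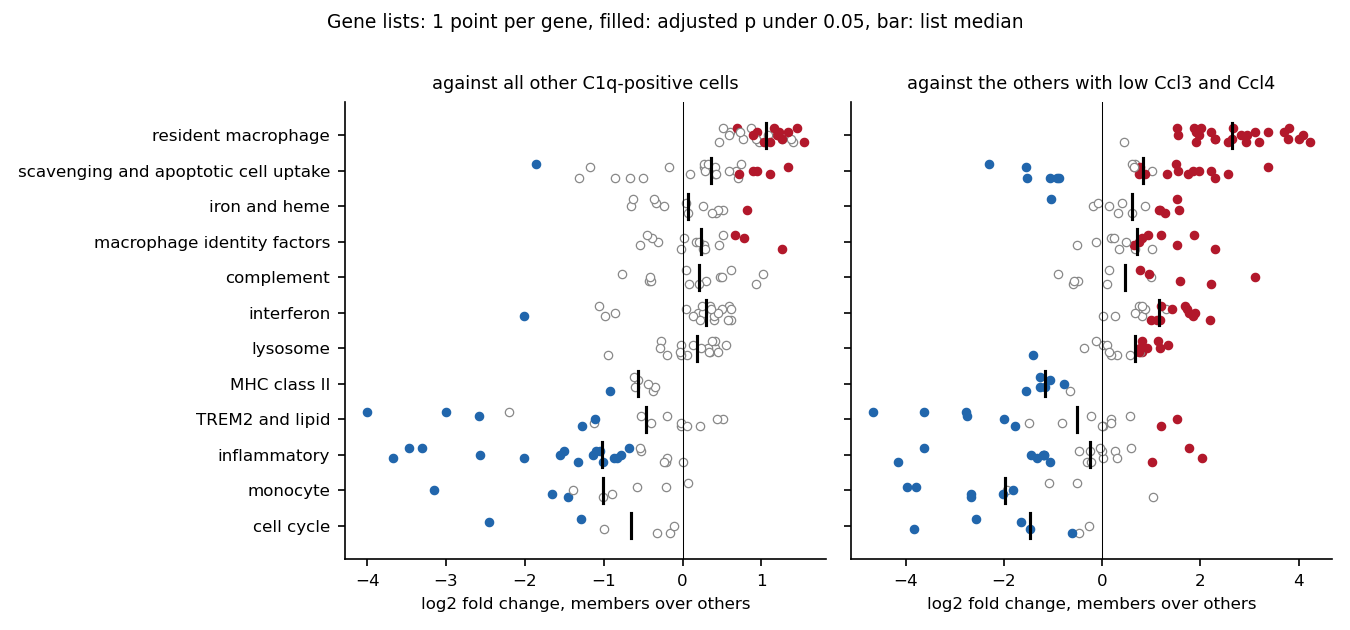
Each row is a gene list and each point 1 gene's log2 fold change, members over the other C1q-positive macrophages (left) or over the Ccl-low ones (right), filled at an adjusted p under 0.05, with a bar at the list's median. The resident list has its median at 1.06 on the left and 2.66 on the right, and the inflammatory list moves from -1.03 to -0.24.

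Markers of other cell types were present in the members' RNA and varied by library. The 8 fibroblast markers summed to 7817, 1348, 1484, 92.5, 901 and 77.0 CPM in members and to 10812, 886, 1156, 1398, 1089 and 93.9 CPM in the other macrophages, and none of the 8 was called between the 2 classes. Of the other cell types' markers, Ighm of B cells was higher in members (1.08 ± 0.26, edgeR adjusted p = 0.0384) and Pdpn of lymphatic endothelium lower (-1.52 ± 0.37, edgeR adjusted p = 0.0434), and both calls ended without the young male, young female, aged male or labelled middle-aged female library. Against Ccl-low cells Cd209a, a dendritic cell marker, was also higher, and Cd2, of T cells, and Krt18 were lower. The part of such cells in the comparison was not tested. Epithelial markers summed to 0, 10.1, 233, 0, 0 and 38.1 CPM in members, and lymphatic endothelium markers to at most 20.3 CPM. From collagen RNA in near-empty droplets, free RNA made up at most 44.7, 17.7, 37.0, 0.796, 17.5 and 3.79% of the members' UMIs. Without the 584 members (15.7%) and the other macrophages with at least 5 UMIs of other cell types' markers, calls went from 333 to 718 (9.96%). Of the 333, 300 were called in both. That fit also lacked the library labelled middle-aged female, which kept 9 members, under the 10 a sum needs. What part of the rise came from its loss was not tested. With free RNA subtracted, 76 genes were called (1.05%).

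The resident genes of the members showed no called difference between aged and young. In aged against young libraries, with labelled sex as a term, none of 26 resident-macrophage genes passed edgeR's threshold, with a median log2 fold change of 0.13. Cd209f differed by 0.10 ± 0.33, Mrc1 by 0.17 ± 0.34, Ccl8 by 0.06 ± 0.37 and Maf by 0.15 ± 0.35 (edgeR adjusted p = 0.999 for each). That these genes missed the threshold does not show that they did not differ, since 2 residual degrees of freedom remain. Over all 9456 genes tested, 96 were called (1.02%), 8 higher (0.0846%) and 88 lower (0.931%) in aged members.

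Among the lower genes were those of fibroblasts. All 8 fibroblast markers were called lower, and Col1a1, the main collagen chain, stood at 1636, 160.0, 112, 0, 42.1 and 3.46 CPM in members. The young male library was the highest by far, and the same library had the most fibroblast RNA in its other macrophages. With free RNA subtracted Col3a1 turned from -4.38 ± 0.44 to 5.86 (edgeR adjusted p = 0.154). That value is set by the subtraction, which is scaled to the collagen RNA of each sum. Cells rich in other types' markers were also left out, by a count that includes these 8 markers themselves. Lum then differed by -1.57 and did not pass. Col1a1 (-3.73), Col1a2 (-1.81) and Col3a1 (-2.11) stayed called lower in that fit. The part of RNA from other cells in these calls was not tested. The fit without cells rich in such markers also lacked the library labelled middle-aged female, which kept 9 members, too few for a sum. Its calls and the 96 thus come from different sets of libraries, and what part that loss had was not tested. Without cells rich in such markers, 69 genes were called (0.733%), 31 higher (0.329%) and 38 lower (0.403%), and 26 of them were among the 96.

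Among genes outside the fibroblast group, 5 are given in full. Fgl2, a fibrinogen-like protein chosen after its values were seen, stood at 193, 138, 110.3, 102, 41.5 and 32.9 CPM. All 4 younger libraries were above both aged ones, and the log2 fold change of aged over young was -2.13 ± 0.29 (edgeR adjusted p = 0.000346). Nfil3, a transcription factor, stood at 155, 139, 161, 120.2, 54.1 and 38.1 CPM, again with both aged libraries lowest (-1.67 ± 0.29, edgeR adjusted p = 0.0041). Without the young female library its call ended (-1.44, adjusted p = 0.0713). Il1rn, the antagonist of the interleukin-1 receptor, stood at 53.5, 89.0, 81.7, 37.0, 6.01 and 24.2 CPM (-2.34 ± 0.43, edgeR adjusted p = 0.00745). Of 15 matrix genes tested, Mmp9 was higher and Mmp19 and Mmp2 were lower, with a median of -0.48. Mmp9, an enzyme that cuts collagen and gelatin, stood at 122, 99.5, 199, 361, 434 and 291 CPM. The 2 young libraries were the lowest, and the log2 fold change was 1.73 ± 0.33 (edgeR adjusted p = 0.00923). Without the aged male library it was 1.26 (adjusted p = 0.123). St3gal5, which makes the ganglioside GM3, stood at 14.6, 26.1, 65.3, 74.0, 33.6 and 100.4 CPM (1.62 ± 0.34, edgeR adjusted p = 0.0188), and its call ended without either young library or the aged female one. Mmp19 was lower by -1.64 ± 0.39 and Mmp2 by -2.24 ± 0.42 (edgeR adjusted p = 0.041 and 0.00923). Mmp19 lost its call without the young male or the aged female library, and Mmp2 without the young female one. Without cells rich in other types' markers Mmp2 alone of the genes named here lost its call, with a difference of -1.26. Fgl2 and Il1rn kept their calls in each fit that left out 1 library. With no limit on Ccl3 and Ccl4 none of the 7 genes of this paragraph passed: Il1rn then differed by -0.21 (adjusted p = 1), Nfil3 by -1.11 (0.69) and Fgl2 by -2.01 (edgeR adjusted p = 0.0778). With free RNA subtracted Fgl2 (0.0653), Il1rn (0.0529), Mmp9 (0.0769) and Mmp19 (edgeR adjusted p = 0.192) did not pass, and without doublets Fgl2 and Nfil3 alone of the 7 did. With the gate on thinned counts Nfil3 (0.113), Il1rn and Mmp9 (0.159 each), Mmp2 (0.299), St3gal5 (0.345) and Mmp19 (edgeR adjusted p = 0.616) did not pass. Fgl2 alone of the 7 kept its call there.

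The complement genes C2 and C3 were lower, by -2.33 ± 0.45 and -1.93 ± 0.35 (edgeR adjusted p = 0.011 and 0.00681), as 2 of 13. C3 stood at 473, 115, 199, 18.5, 186 and 16.4 CPM and differed by -0.20 without cells rich in other types' markers (adjusted p = 0.97). Ccl5, a chemokine, stood at 14.6, 84.4, 1.30, 0, 0.601 and 16.4 CPM, most of it in the young female library, and Csf1, the survival factor of macrophages, was lower by -2.31 ± 0.50 (edgeR adjusted p = 0.0218). C2, C3, Ccl5 and Csf1 lost their calls without the young female library, and Csf1 also without the young male or the aged female one. None of the 4 passed with the gate on thinned counts (edgeR adjusted p from 0.0917 to 0.77). With no limit on Ccl3 and Ccl4 none of them passed either, and Ccl5 differed by -0.36. None of 7 MHC class II genes passed, with a median of 0.62, and H2-Aa differed by 0.55 ± 0.43 (edgeR adjusted p = 0.963). Neither Cd36, a fatty acid and lipoprotein receptor (1.32 ± 0.38, adjusted p = 0.14), nor Fcna, a ficolin (1.22 ± 0.34, edgeR adjusted p = 0.126), passed.

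The number of age calls depended on the model. With no sex term edgeR called 0 genes, with 493 at an unadjusted p under 0.05, and 10 were called when the middle-aged libraries took the sex that their Xist and Y-linked RNA reads. In that fit Nfil3, Col1a1 and Lum (edgeR adjusted p = 0.057 for each), Mmp19 (0.0608), C2 (0.129), St3gal5 (0.13), Col3a1 (0.216), Col1a2 (0.233), Csf1 (0.258), Mmp2 (0.328) and C3 (0.794) did not pass, while Fgl2, Il1rn, Mmp9 and Ccl5 did. Leaving out the library labelled middle-aged male gave 213 calls, the one labelled middle-aged female 260, both of them 200, and the aged female 198.

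Retnla, a secreted protein of alternatively activated macrophages, had the widest span in CPM of the 26 genes named in every comparison. It stood at 4530.1, 20480.2, 27534, 24094, 24155 and 29516 CPM in members and 3095, 22528, 24494, 16592, 17781 and 6472 CPM in the other macrophages. The young male library was the lowest in both classes. Its aged over young difference was 1.30 ± 0.53 (edgeR adjusted p = 0.499), so the 2 young libraries differed more from each other than the ages did.

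**Figure D4:**
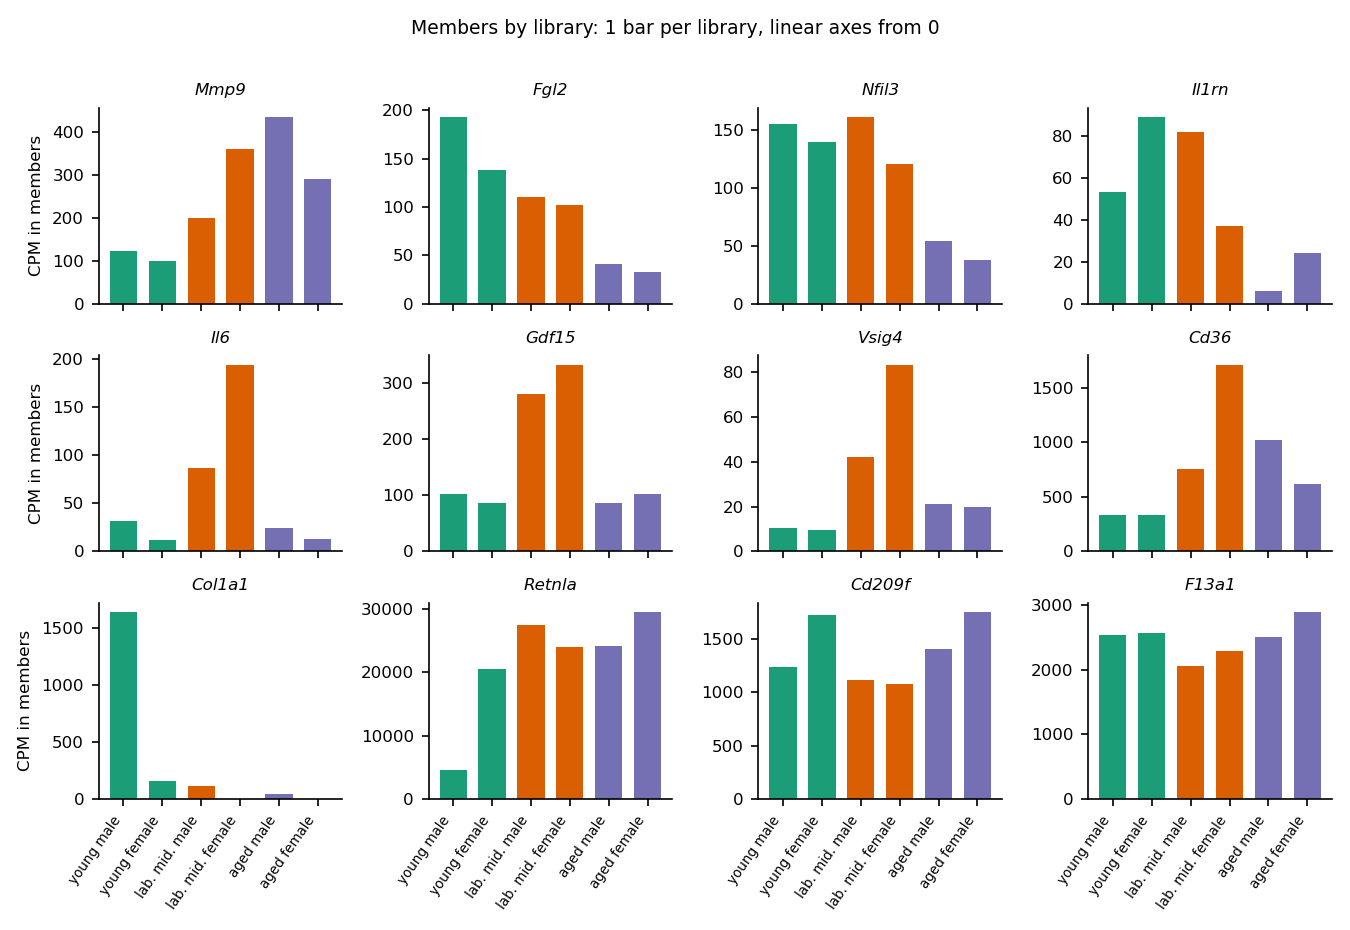
Each panel is 1 gene and each bar the members' level in 1 library (CPM, linear axis from 0), coloured by age. Fgl2 and Nfil3 are lowest in both aged libraries, Gdf15 and Il6 highest in both middle-aged ones, and Col1a1 stands out in the young male library at 1636 CPM. Cd209f and F13a1 vary between libraries without a called age difference.

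In middle-aged against young members, 57 of 9456 genes were called (0.603%), 36 higher (0.381%) and 21 lower (0.222%), and 4 of 22 inflammatory genes were higher (Il6, Nlrp3, Cxcl2 and Cxcl10), with a median log2 fold change of 0.68 against -0.06 over all genes. Il6, the cytokine interleukin-6, stood at 31.8, 12.4, 86.9, 194, 24.6 and 13 CPM. Both middle-aged libraries were above the other 4, and the log2 fold change was 2.47 ± 0.45 (edgeR adjusted p = 0.00921). Gdf15, a stress-induced cytokine, stood at 102, 85.7, 281, 333, 85.9 and 103 CPM, with the same order of groups and no overlap (1.75 ± 0.29, edgeR adjusted p = 0.00348). Nlrp3, the sensor of the inflammasome, stood at 51.6, 65.1, 205, 231, 84.7 and 89.98 CPM (1.97 ± 0.29, edgeR adjusted p = 0.00154). These 3 and Mid1 (2.39 ± 0.34, adjusted p = 0.00112) kept their calls in each fit that left out 1 library. Vsig4, a complement receptor of resident macrophages, was the only called gene of the resident list and stood at 10.5, 9.63, 41.9, 83.2, 21.0 and 19.9 CPM (2.42 ± 0.43, edgeR adjusted p = 0.00859), with a call that ended without the young male library (adjusted p = 0.0938). Cd36 stood at 338, 335, 758, 1711, 1020.3 and 620.3 CPM (1.86 ± 0.39, edgeR adjusted p = 0.028) and Cxcl2, a chemokine for neutrophils, at 2521, 1724, 7053, 9601, 4844 and 1184 CPM (2.12 ± 0.47, edgeR adjusted p = 0.0404). Both were led by the library labelled middle-aged female, and without it Cd36 differed by 1.08 (adjusted p = 0.434) and Cxcl2 by 1.17 (adjusted p = 0.695). Cxcl10 lost its call without the young male library or the one labelled middle-aged male. Krt8 and Krt18 were called higher from the library labelled middle-aged male alone, where they stood at 105 and 62.3 CPM and were at 0 in the other middle-aged library.

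The middle-aged difference rests on 1082 cells in one library and 16 in the other. Those 16 cells had passed a Ccl limit that removed 80.2% of that library's C1q-positive macrophages, and their median depth was 7660 UMIs against 1927.5 to 3767.5 in the other libraries. With the gate on thinned counts that library had 35 members. There Il6 differed by 2.60, Vsig4 by 1.94, Cd36 by 2.35 and Cxcl2 by 2.45. None of these passed (edgeR adjusted p from 0.125 to 0.229), while Gdf15, Nlrp3 and Mid1 kept their calls. What part of the levels came from depth was not tested. Leaving out the library labelled middle-aged female gave 176 calls, the young female 123, the aged male 202 and the aged female 220. With no sex term edgeR called 0, with 645 at an unadjusted p under 0.05, with the exchanged sex labels 18, and with no Ccl limit 5. In that last fit Il6 (edgeR adjusted p = 0.145), Gdf15 and Mid1 (0.12 each) did not pass.

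Aged members were lower than middle-aged ones in 4 of 22 inflammatory genes (Cxcl10, Il1rn, Il6 and Tnfaip3). Of 9456 genes, 20 were called (0.212%), all lower, and 0 were called higher by edgeR or DESeq2, although 188 had an unadjusted p under 0.05 in that direction with edgeR. Il6 was lower by -2.64 ± 0.47 and Gdf15 by -1.73 ± 0.29 (edgeR adjusted p = 0.0329 for each), and these 2 kept their calls whichever library was left out. Tnfaip3, a brake on NF-kB signalling, stood at 244, 160.5, 291, 610.4, 138 and 83.1 CPM (-1.98 ± 0.38, edgeR adjusted p = 0.0371) and Cd83, a surface protein of activated cells, at 430.4, 517, 839.7, 1054, 340.1 and 252 CPM (-1.70 ± 0.33, edgeR adjusted p = 0.0376). Tnfaip3 lost its call without the library labelled middle-aged female, and Cd83 without the one labelled middle-aged male or the aged female. Il1rn was lower by -2.68 ± 0.48 and Nfil3 by -1.68 ± 0.31 (edgeR adjusted p = 0.0329 and 0.0371), and both calls ended without the library labelled middle-aged male, that of Il1rn also without the aged male. With the middle-aged sex labels exchanged Il1rn, Nfil3 and Cd83 (edgeR adjusted p = 0.0675 each) and Cxcl10 (0.0962) did not pass, and without doublets or with no Ccl limit edgeR called 0 genes (550 and 705 at an unadjusted p under 0.05). Il6 and Gdf15 share the middle-aged libraries between the 2 comparisons, so the second is not a separate observation. Leaving out 1 library gave 80 calls without the young male, 82 without the young female, 135 without the one labelled middle-aged female, 102 without the aged male and 97 without the aged female.

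No age difference was shown to be particular to the members when they were set against all other C1q-positive macrophages. The test of the class by age interaction called 0 of 9414 genes with edgeR and 0 with DESeq2, and 305 genes had an unadjusted p under 0.05. The 3 genes with the smallest p, none past the threshold, were Saa3 (5.85 ± 0.79, edgeR adjusted p = 0.0626), Wfdc18 (-5.83 ± 0.95, 0.146) and Myh11 (-7.35 ± 1.27, 0.227). Without the aged male library 560 genes were called, without the aged female 80, without the young male 7 and without the young female 9, when the lone library of an age is assumed to vary like the others. Against Ccl-low cells alone the interaction did call genes. Among them were Irf7 (3.29 ± 0.63), Atp1b1 (-3.40 ± 0.69), Areg (-3.68 ± 0.81) and Acta2 (-5.89 ± 0.89), a smooth muscle marker. The Ccl-low sum of the aged male library held 30 cells, and the part of other cell types' RNA was not tested. The genes of the rule were tested in all C1q-positive macrophages together, chosen without them. There Lyve1 differed by 0.43 ± 0.37, Folr2 by -0.42 ± 0.41 and Cd163 by 0.49 ± 0.62 between aged and young (edgeR adjusted p = 1 for each). In that population edgeR called none of 10221 genes (300 had an unadjusted p under 0.05), while DESeq2 passed 23. Without the aged male library 207 genes were called, and without the aged female 85.

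Members also varied among themselves in MHC class II. Of 1500 UMIs per thinned cell, the MHC class II genes took a median of 4, 15, 12, 30, 29 and 14 in the 6 libraries. A range of 0 to 4 such UMIs held 860 members (29.6%), 5 to 19 held 968 (33.3%) and 20 or more held 1077 (37.1%). These are ranges of a count and not types. The highest range took 20.6, 42.1, 35.1, 62.5, 67.2 and 36.1% of members, so the aged male library had the most, followed by the 16 cells labelled middle-aged female, and the young male the fewest. From the lowest to the highest range, Lyve1 went from 1306 over 1277 to 963 CPM and Timd4 from 198 over 177 to 119 CPM. Ccr2 went from 37.2 over 62.7 to 166 CPM, Cd36 from 371 over 617 to 766 CPM and Retnla from 11388 over 20492 to 24768 CPM. The ranges take different shares of their cells from each library, so these levels mix cells and libraries, and no test was made.

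**Figure D5:**
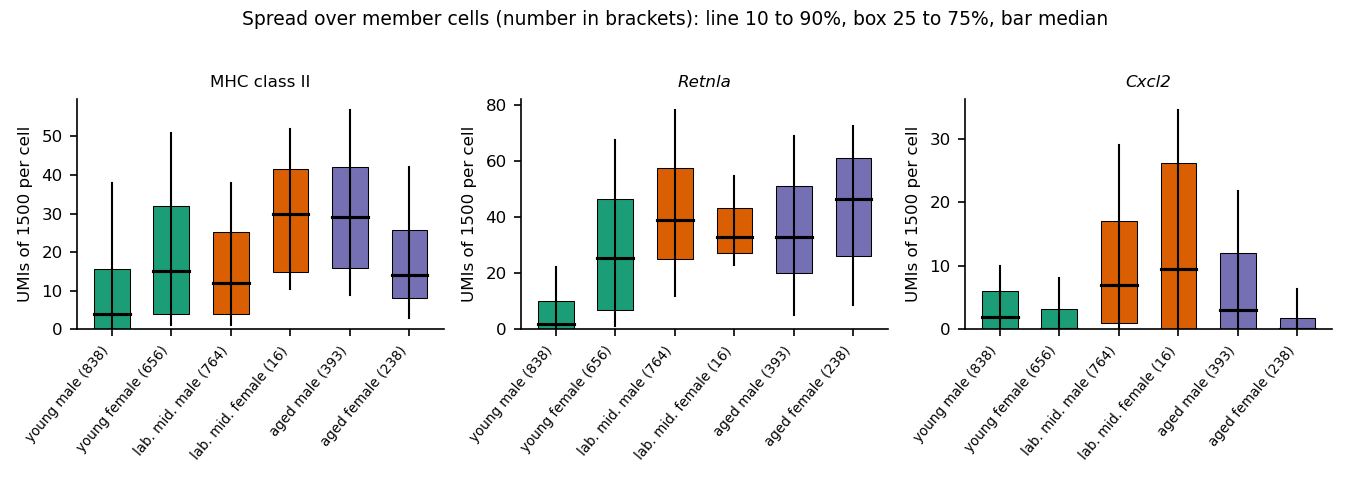
Each panel shows 1 quantity in UMIs of 1500 per thinned member cell (MHC class II, Retnla and Cxcl2), by library, with the number of cells in brackets, a line from the 10th to the 90th percentile, a box from the 25th to the 75th and a bar at the median. The Retnla median is 2 in the young male library and 25.5 to 46.5 in the other 5, and the Cxcl2 median is 0 to 9.5.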

How the data were processed

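The deposited files are raw UMI counts for every gene and barcode, which the authors obtained from Cell Ranger 3.0.2 on mm10, per the file headers, without cell calling; Seurat is named without a version in the submitters' processing notes. The labels name v2 chemistry, while each library lists 6794880 barcodes, the number of a later kit. Genes sharing a symbol were summed (31053 IDs, 31017 symbols), and 30934 IDs were found in GENCODE M21.

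Cells and members were taken by the thresholds given in the report. Scrublet (in scanpy 1.11.5, 6% expected doublets) marked 218 members, which were kept and removed only in an alternative. Counts were summed per library and class (at least 10 cells a sum), with 108118 to 2674088 UMIs per member sum, and CPM are these counts scaled to the sum's total. Sums were compared in edgeR 4.0.16 under R 4.3.3 (TMM, filterByExpr, quasi-likelihood test, Benjamini-Hochberg over all genes). Members against others used library as a block (5 residual degrees of freedom), the ages used age and labelled sex (2) and the interaction 3. The 10 genes of the rule were fitted with the rest and are described without a test. DESeq2 1.42.0 was an alternative. Members and gene lists were chosen with earlier results of these data known.

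Genes named are those of the 28 lists (up to 4 each, by smallest p), 26 named throughout, and the largest folds past the threshold (up to 15 per direction and 50 CPM for members against others, 10 and 30 CPM for age) with one direction in every library or sex pair; Fgl2 was added after its values were seen. Single values of a few genes that the counts include are not reported here. Alternatives were DESeq2, RLE factors, no count filter, leaving out libraries, doublets, a gate on thinned counts, free RNA, the sex term or labels, the Ccl limit, the comparator, both middle-aged libraries and cells rich in other types' markers; the last 2 were chosen after seeing the data. On simulated data with 200 genes changed 4-fold, edgeR recovered 88.5% for members against others (7606 genes, 8 false calls). For aged against young it recovered 76.0% (9162 genes, 5 false calls). DESeq2 recovered 88.5% and 55.0%. The simulated sums shared a mean profile and a fixed dispersion for all genes, with no further differences between libraries. These rates therefore check the fits and do not measure their power or error in the real libraries. Nothing says that libraries are separate animals, so p-values measure the spread between these libraries.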

Additional observations from a re-analysis of the deposited data

How the results depend on the processing

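The library labelled middle-aged female has 16 members, and the age fits have 2 residual degrees of freedom. Fits without cells rich in other types' markers had no member sum of that library, which kept 9 members there. The labels number no replicates; members and others were blocked by library, and sex was a term of the age fits.

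Members against the others gave 333 calls, 439 with DESeq2, 1053 with no count filter, 76 with free RNA subtracted, 1201 against Ccl-low cells, 184 without both middle-aged libraries, 718 without cells rich in other types' markers, and 89 to 470 with 1 library left out. Of 51 called genes named, 747 values under alternatives gave 545 with the same call, 201 past the threshold no longer and 1 turned, Cxcl10 at 0.0141 against Ccl-low cells.

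Aged against young gave 96 calls, 41 with DESeq2, 226 with no filter, 15 without doublets, 19 with the gate on thinned counts, 35 with free RNA subtracted, 0 with no sex term, 10 with the middle-aged sex labels exchanged, 7 with no Ccl limit, 200 without both middle-aged libraries, and 84 to 260 with 1 library left out. With free RNA subtracted Col3a1 turned to 5.86 and Sparc to 7.61. The subtraction is scaled to take away the Col1a1, Col1a2 and Col3a1 RNA of each sum. The turned Col3a1 values here and below are set by that step and are no result on age.

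Middle-aged against young gave 57 calls and, in the same order of settings up to the Ccl limit, 21, 186, 25, 12, 42, 0, 18 and 5, with 38 to 220 when 1 library was left out. With free RNA subtracted Fabp4 turned to 1.25, Gm42418 to 14.36, Col3a1 to 8.23 and Slc12a2 to -1.31; without the library labelled middle-aged male Krt8 turned to -6.14 and Krt18 to -5.59, while without the other middle-aged library they were 11.5 and 11.27.

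Aged against middle-aged gave 20 calls, 21 with DESeq2, 143 with no filter, 3 with free RNA subtracted, 8 with exchanged sex labels, 55 without cells rich in other types' markers, 0 without doublets, with the gate on thinned counts, with no sex term or with no Ccl limit (edgeR, with 550, 638, 616 and 705 genes at an unadjusted p under 0.05), and 27 to 135 with 1 library left out. Without the library labelled middle-aged male Thbs1 turned to 4.68, while without the other middle-aged library it was -3.38.

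The interaction gave 0 calls (305 at an unadjusted p under 0.05 with edgeR, and 0 calls with DESeq2), 42 with no filter, 5 without doublets, 22 against Ccl-low cells, 1 without cells rich in other types' markers and 0 to 560 with 1 library left out. All C1q-positive macrophages, aged against young, gave 0 (300 at an unadjusted p under 0.05 with edgeR), 23 with DESeq2, 152 with no filter and 0 to 207 with 1 library left out. The cause of these differences was not tested.

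The aged minus young share of members, -2.11 points, turned to 0.656 with the gate on thinned counts, 4.60 with no Ccl limit, 4.21 with both, and 0.219 when at least 3 UMIs of Lyve1, Folr2 and Cd163 were asked for, and was -5.74 when 1 UMI was enough; with 1 library left out it ranged from -7.21 to 2.99.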
